A study of Mus musculus with 9 samples.

Results

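The tumour necrosis factor (TNF) superfamily, its receptors and the TRAF adaptor proteins were followed in mouse bone marrow macrophages under 2 compounds. Members were found by gene symbol alone: Tnf, the numbered Tnfsf, Tnfrsf and Traf genes, Cd40, Cd27, Fas, Fasl, Ltb and Ltbr. This gave 44 of the 28998 genes of the table, namely 14 ligands, 23 receptors and 7 TRAFs. Of these, 26 had a mean of at least 1 FPKM (fragments scaled to transcript length and sequencing depth) over the libraries and were compared between groups, with 4 ligands, 16 receptors and 6 TRAFs. The 26 stand among 11798 genes tested in all.

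In all, 3 groups with 3 libraries each were sequenced, called JHU083, WGFT17 and Control, all from wild-type C57 mice. Marrow monocytes were grown for 7 days with GM-CSF, a growth factor of myeloid cells, and the JHU083 and WGFT17 cells then received their compound for 36 h. JHU083 releases DON, an antagonist of glutamine that blocks enzymes using it. WGFT17 is a code name, and its target and structure were not used here. No dose is given for either compound, and the labels do not say what Control cells received or whether they were kept for the same time, so culture time and drug cannot be told apart. The labels give neither the number of mice nor any pooling, so p-values measure the spread between these libraries, which may be technical. The cultures are bulk samples in which fewer cells of a type and less RNA per cell cannot be told apart.

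Ligands of the superfamily are mostly made as membrane proteins that act on a neighbouring cell or are cut off as soluble cytokines. Their receptors carry cysteine-rich repeats outside the cell, and signal either through a death domain, which can lead to cell death, or through TRAF proteins, which lead to the transcription factors NF-kB and AP-1. Some receptors are decoys that bind a ligand without signalling. Macrophages are a main source of TNF, and carry both of its receptors.

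Start-site sequence was examined for the members with a RefSeq promoter entry (GRCm38.p6, 250 bases before to 50 after the annotated start). Entries were found for 36 of the 44 members and for 19 of the 26 tested ones, which had 20 windows. Shown are Tnf, which was lower in JHU083 than in both other groups, Tnfrsf12a and Traf4, which were lower with both compounds, and Traf3, which was higher in WGFT17 than in both other groups. Capitals mark every match, on either strand, to the letters TATAAA (the TATA box), GGGCGG (the GC box), GGNNTTTCC (a kB-like site) or TGANTCA (an AP-1 site). No match overlapped another in these 4 windows. The windows lie at chr17:35201958-35202257 for Tnf, chr17:23677400-23677699 for Tnfrsf12a and chr11:78165501-78165800 for Traf4, all on the minus strand, and at chr12:111166120-111166419 on the plus strand for Traf3.
Tnf: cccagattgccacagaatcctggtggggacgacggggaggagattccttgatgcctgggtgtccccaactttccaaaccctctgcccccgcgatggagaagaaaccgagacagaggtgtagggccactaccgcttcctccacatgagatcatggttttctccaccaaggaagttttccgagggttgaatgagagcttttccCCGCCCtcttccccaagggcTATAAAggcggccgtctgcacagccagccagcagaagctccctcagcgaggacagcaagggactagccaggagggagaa
Tnfrsf12a: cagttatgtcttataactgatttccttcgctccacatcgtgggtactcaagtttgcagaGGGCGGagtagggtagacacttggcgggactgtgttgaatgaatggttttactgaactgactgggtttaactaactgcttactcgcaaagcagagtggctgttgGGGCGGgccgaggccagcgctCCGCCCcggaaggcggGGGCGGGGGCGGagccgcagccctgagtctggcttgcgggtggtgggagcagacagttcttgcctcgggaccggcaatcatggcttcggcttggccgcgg
Traf4: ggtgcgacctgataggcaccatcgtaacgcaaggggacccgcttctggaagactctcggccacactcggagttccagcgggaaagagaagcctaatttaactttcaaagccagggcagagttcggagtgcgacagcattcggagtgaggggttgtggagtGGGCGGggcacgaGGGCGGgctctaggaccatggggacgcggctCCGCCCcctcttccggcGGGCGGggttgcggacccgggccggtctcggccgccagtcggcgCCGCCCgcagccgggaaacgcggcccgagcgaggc
Traf3: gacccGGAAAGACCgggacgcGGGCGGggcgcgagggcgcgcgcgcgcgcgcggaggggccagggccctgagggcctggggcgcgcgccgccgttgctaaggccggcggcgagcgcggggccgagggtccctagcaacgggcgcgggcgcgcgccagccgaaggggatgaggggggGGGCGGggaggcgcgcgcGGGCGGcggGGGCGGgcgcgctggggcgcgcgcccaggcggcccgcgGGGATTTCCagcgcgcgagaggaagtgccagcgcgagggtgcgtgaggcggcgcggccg

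The Tnf window held a TATA box that begins 29 bases before the start, and 1 GC box. The Tnfrsf12a and Traf4 windows each held 5 GC boxes and no TATA box. Traf3 had the most GC-rich of the 4 windows, at 84.0% G and C against 68.0% for Traf4, 59.7% for Tnfrsf12a and 58.0% for Tnf. Its window held 4 GC boxes and 2 kB-like matches. The median over all 32851 windows was 52.7% G and C. Over the 20 windows of tested members, 15 held a GC box (75.0%, against 35.7% of all 32851 windows), 4 a kB-like match (20% against 5.82%), 3 an AP-1 match (15.0% against 7.81%) and 2 a TATA box (10% against 13.6%). The windows with a TATA box were those of Tnf and Tnfrsf23. These are letter matches in a fixed window and not sites of binding. The windows of all genes were not limited to a mean of at least 1 FPKM, as those of tested members were. What that limit does to these shares was not tested.

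Libraries held between 56624220 and 69112134 estimated counts, where about 4 counts stand for 1 read pair, and 21556 to 22424 genes above 0. Summed over 10 macrophage markers, counts scaled to library totals (CPM) were 19795 to 21186 in JHU083, 19364 to 21388 in WGFT17 and 18791 to 20231 in Control. The 10 stromal markers summed to 10121 to 11772 CPM in JHU083, 2565 to 2740 in WGFT17 and 15434 to 16472 in Control. Dendritic cell markers (9 genes) summed to 397 to 447, 132 to 156 and 408 to 586 CPM in the same order of groups, and B cell markers (6 genes) to 28.4 to 35.4, 8.64 to 10.2 and 51.2 to 52.9. Photoreceptor transcripts, foreign to these cells, summed to 5.74, 5.50 and 42.8 CPM in the 3 JHU083 libraries, 3.79 to 4.44 in WGFT17 and 37.8 to 46.1 in Control, so that JHU083 replicate 3 stands with Control in this respect. Heart transcripts (13 genes) summed to 238, 1.31 and 373 CPM in the JHU083 libraries, 1.09 to 1.33 in WGFT17 and 308 to 354 in Control, so here JHU083 replicate 1 also stands near Control. The source of these transcripts was not tested, and whether JHU083 replicate 3 is what its label says could not be checked. Some calls are lost or gained without that library, or with a term for the libraries that carry photoreceptor transcripts. For tested members and for genes of the list around the TNF receptors, these are given beside each change that is reported. With 3 groups, that term rests on JHU083 replicate 3 alone.

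TNF receptors proper were the most abundant members, and TNF itself was a mid-level transcript. Tnfrsf1b averaged 115.9 ± 6.94 FPKM in JHU083, 118.3 ± 3.01 in WGFT17 and 107.5 ± 5.37 in Control (SD, n = 3 each). Tnfrsf1a averaged 77.4 ± 6.77, 82.1 ± 2.44 and 73.0 ± 2.56 FPKM in the same groups. Next in mean level came Ltbr, the lymphotoxin-beta receptor, and the ligand Tnfsf12. The tested members closest to the limit of 1 FPKM were Cd40 at 1.30, Tnfrsf9 at 1.63 and Traf5 at 1.78. Just under it lay Tnfsf14 at 0.67, Tnfrsf18 at 0.66 and Tnfrsf19 at 0.64. Of the members tested, Tnfrsf11b was under 1 FPKM in the WGFT17 mean and Cd40 in the Control mean, so their place in the test rests on the other groups.

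**Figure D1:**
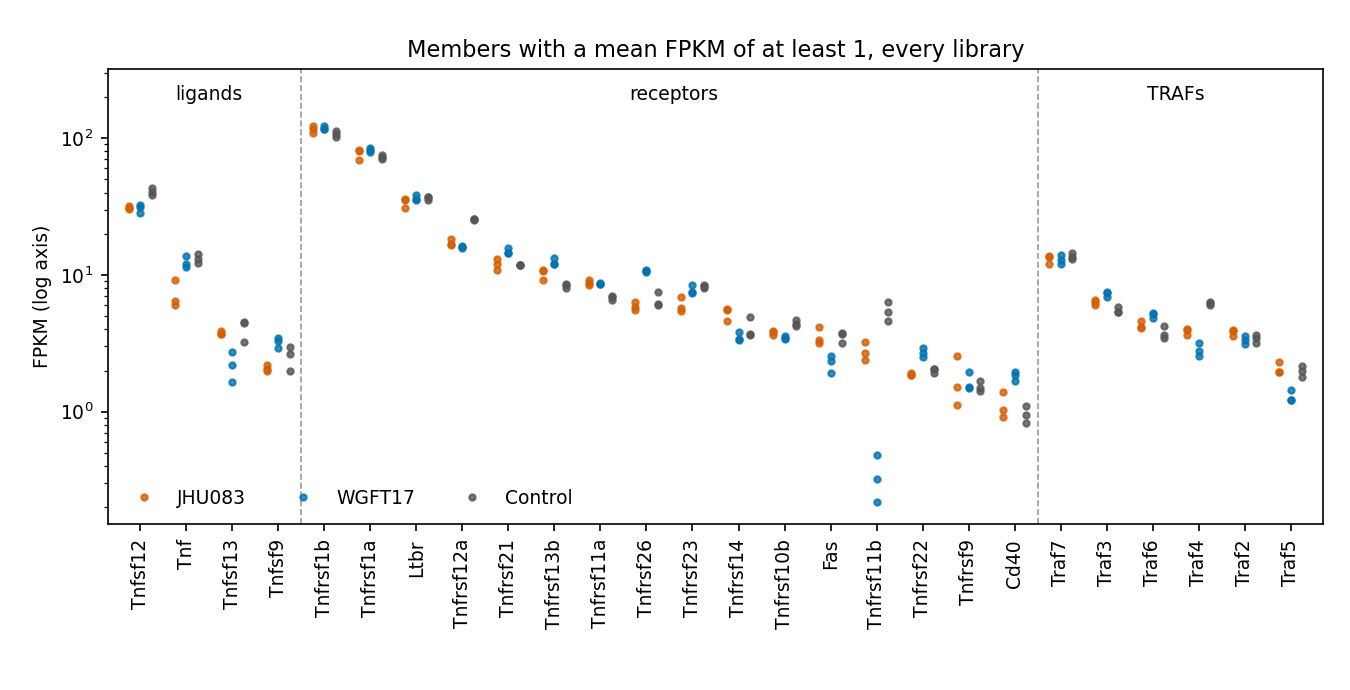
FPKM (log axis) of the 26 tested members in every library, with ligands at the left, receptors in the middle and TRAFs at the right, each ordered by mean level; orange points are JHU083, blue WGFT17 and grey Control libraries. Tnfrsf1b and Tnfrsf1a stand highest, and the 3 WGFT17 values of Tnfrsf11b lie between 0.22 and 0.48 FPKM, below every other point.

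The members were compared in 3 ways with edgeR's quasi-likelihood test, called at an adjusted p under 0.05 (Benjamini-Hochberg over all tested genes of a comparison). Fitted log2 changes, given with their standard errors (SE), use counts scaled by TMM, which sets the bulk of genes at no change, while FPKM values are scaled by the authors. Both comparisons with Control use the same Control libraries, so their results are not independent.

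Under JHU083, 9 of the 26 members (34.6%) differed from Control, 1 higher and 8 lower. Of all tested genes, 24% were called in this comparison, 11.5% higher and 12.5% lower. The median log2 change of members was -0.12, against 0.00 over all tested genes. Groups did not overlap in FPKM for 10 members, against 43.7% of all genes. The split of calls moved with the scaling: with library totals alone, 2 members were higher and 7 lower, and with limma on log2(FPKM + 1), 3 were higher and 7 lower. The corresponding share of higher calls over all genes was 47.7% with TMM, 58.6% with library totals and 71.6% with limma on FPKM.

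Under WGFT17, 17 of the 26 members (65.4%) differed from Control, 8 higher and 9 lower. The background here was 58% of all genes, with 28% higher and 30% lower, and a median log2 change of -0.12 for members against 0.00 for all genes. Groups did not overlap for 18 members, while 73.2% of all genes showed no overlap. All genes split as 48.3% higher among calls with TMM and 60.9% with limma on FPKM, where members split into 10 higher and 8 lower. With the term for the library split, 11 members were called, 3 higher and 8 lower, and 10 of them were among the 17.

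WGFT17 and JHU083 cells differed from each other in 16 members (61.5%), 10 higher and 6 lower in WGFT17. In this comparison 44.7% of all genes were called, 20.4% higher and 24.4% lower. Members had a median log2 change of -0.0016 and all genes 0.0062, and groups did not overlap for 18 members, against 53.4% of all genes. Doses are not given, so this sets one treatment against the other and not the compounds at a matched dose. Another 4 members were called in none of the comparisons, namely Tnfrsf1a, Tnfrsf1b, Tnfrsf9 and Traf2.

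**Figure D2:**
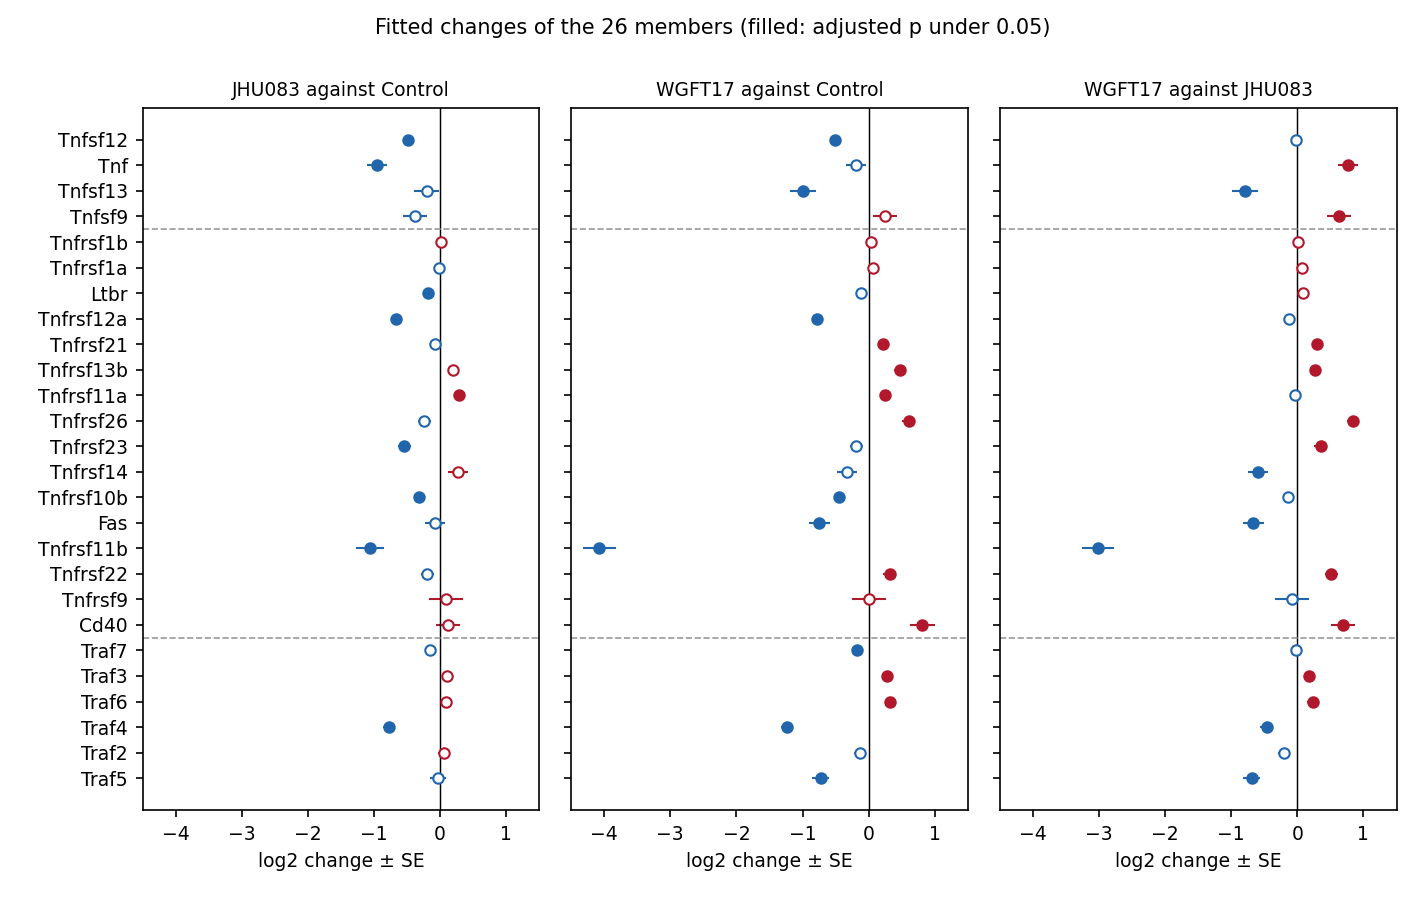
Fitted log2 change ± SE of the 26 members (rows) in JHU083 against Control, WGFT17 against Control and WGFT17 against JHU083 (panels); red is higher and blue lower in the group named first, and filled circles have an adjusted p under 0.05. Tnfrsf11b at -4.08 in WGFT17 against Control lies far to the left of every other member.

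Among the 4 ligands, Tnf, Tnfsf13 and Tnfsf9 were called between the compounds, and Tnf was lower in JHU083 than in both other groups. Tnf encodes the founding cytokine of the superfamily and lies on chromosome 17 (35199381 to 35202007, GRCm38, minus strand), 3.1 kb from Ltb. It was measured at 6.42, 6.05 and 9.21 FPKM in the JHU083 libraries, 13.69, 11.43 and 12.05 in WGFT17 and 14.13, 12.15 and 13.04 in Control. All JHU083 values lay below all others, and the values of WGFT17 and Control overlapped. Tnf was 1.93-fold lower in JHU083 than in Control, a log2 change of -0.95 (SE 0.15, adjusted p = 0.00215), and was higher in WGFT17 than in JHU083 by a log2 change of 0.76 (SE 0.15, adjusted p = 0.0016). Between WGFT17 and Control its log2 change was -0.19 (SE 0.15, adjusted p = 0.291), and 0.39 (adjusted p = 0.0828) with the term for the library split. JHU083 replicate 3 was 1.48 times the mean of the other JHU083 libraries. The log2 change of JHU083 against Control was -1.17 without that library and -0.59 (adjusted p = 0.00995) with the term for the library split.

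Tnfsf12, the cytokine TWEAK, was lower with both compounds. Its FPKM values were 30.13, 30.58 and 31.84 in JHU083, 31.17, 28.42 and 32.23 in WGFT17, and 38.07, 43.23 and 40.21 in Control. The drug groups overlapped each other and lay entirely below Control. The log2 change was -0.49 in JHU083 (SE 0.07, adjusted p = 0.00119) and -0.51 in WGFT17 (SE 0.07, adjusted p = 5.02e-05). Its receptor Tnfrsf12a, known as Fn14, showed the same order of groups. Tnfrsf12a had 18.29, 16.43 and 16.82 FPKM in JHU083, 16.15, 15.90 and 15.78 in WGFT17, and 25.06, 25.75 and 25.62 in Control. It was 1.58-fold lower in JHU083 (log2 change -0.66, SE 0.06, adjusted p = 0.000153) and 1.72-fold lower in WGFT17 (log2 change -0.78, SE 0.06, adjusted p = 6.77e-07). Neither gene was called between WGFT17 and JHU083, with log2 changes of -0.03 for Tnfsf12 (SE 0.07) and -0.12 for Tnfrsf12a (SE 0.06).

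Tnfsf13, the cytokine APRIL, was lower in WGFT17 than in both other groups. Libraries showed 3.72, 3.71 and 3.92 FPKM in JHU083, 1.66, 2.21 and 2.74 in WGFT17, and 3.24, 4.56 and 4.43 in Control. No WGFT17 value reached the lowest of the other groups, and JHU083 overlapped Control. The log2 change was -0.995 against Control (SE 0.19, adjusted p = 0.00111) and -0.79 against JHU083 (SE 0.19, adjusted p = 0.00598). With the term for the library split, the change against Control was -0.90 with an adjusted p of 0.0568. Tnfsf13 and Tnfsf12 are 465 bases apart on chromosome 11, and the annotated read-through gene Tnfsfm13 shares 9600 bases with Tnfsf12 and 2939 bases with Tnfsf13 on the same strand. Tnfsfm13 averaged 13.9 FPKM and was called in none of the comparisons. In WGFT17 against Control it fell just short of a call, with a log2 change of -0.29 (SE 0.12, adjusted p = 0.052). How reads were divided among the 3 genes is uncertain.

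Tnfsf9, the ligand of the costimulatory receptor Tnfrsf9, was higher in WGFT17 than in JHU083. It had 1.97, 2.2 and 2.04 FPKM in JHU083, 3.45, 3.30 and 2.94 in WGFT17 and 1.99, 2.95 and 2.66 in Control. Control overlapped both drug groups, which did not overlap each other. The log2 change between WGFT17 and JHU083 was 0.62 (SE 0.18, adjusted p = 0.0155), and those against Control were 0.24 (SE 0.18, adjusted p = 0.268) in WGFT17 and -0.38 (SE 0.18, adjusted p = 0.147) in JHU083. The call between the drug groups was lost without WGFT17 replicate 1 (adjusted p = 0.0513), and limma on log2(FPKM + 1) called the WGFT17 change against Control (0.27, adjusted p = 0.0425). Its receptor Tnfrsf9 averaged 1.73 ± 0.73 FPKM in JHU083, 1.65 ± 0.25 in WGFT17 and 1.52 ± 0.13 in Control and was not called.

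Tnfrsf11b showed the largest change of the tested members in each comparison. It encodes osteoprotegerin, a secreted decoy that binds the osteoclast factor RANKL (Tnfsf11) and keeps it from its receptor RANK (Tnfrsf11a). Tnfrsf11b was measured at 2.68, 2.38 and 3.25 FPKM in JHU083, 0.32, 0.22 and 0.48 in WGFT17, and 5.38, 6.33 and 4.59 in Control. The 3 groups did not overlap. Behind the WGFT17 values stand 67, 47 and 97 estimated counts, of which about 4 stand for 1 read pair. Tnfrsf11b was 16.9-fold lower in WGFT17 than in Control (log2 change -4.08, SE 0.25, adjusted p = 1.23e-07), 2.09-fold lower in JHU083 than in Control (log2 change -1.06, SE 0.21, adjusted p = 0.0064) and 8.07-fold lower in WGFT17 than in JHU083 (log2 change -3.01, SE 0.24, adjusted p = 1.65e-06). In JHU083 against Control it was -1.20 without JHU083 replicate 3 and -0.82 (adjusted p = 0.0581) with the term for the library split.

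Osteoprotegerin is known as a product of stromal cells as well as of other cells, and the stromal marker list moved in the same order. Of its 10 genes, 8 were tested. Against Control, 6 were lower in JHU083, with a median log2 change of -0.46 over the 8, and all 8 were lower in WGFT17, with a median of -2.66. Between WGFT17 and JHU083 all 8 were lower in WGFT17, with a median of -2.14. The order was not particular to the stromal list, since the summed B cell and neutrophil markers were also highest in Control and lowest in WGFT17. The part of stromal or other cells in the Tnfrsf11b values was not tested.

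Tnfrsf11a, which encodes RANK, was higher with both compounds. Values were 8.47, 8.78 and 9.13 FPKM in JHU083, 8.64, 8.66 and 8.64 in WGFT17, and 6.97, 6.88 and 6.52 in Control. Both drug groups lay above Control and overlapped each other. Tnfrsf11a was the only member called higher in JHU083 than in Control (log2 change 0.28, SE 0.05, adjusted p = 0.00554), and its change in WGFT17 was 0.24 (SE 0.05, adjusted p = 0.00288). The RANK ligand Tnfsf11 itself stayed under the FPKM limit.

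The TNF receptors were not called in any comparison. Tnfrsf1a, which carries the death domain and is made by most cell types, had 80.11, 82.43 and 69.71 FPKM in JHU083, 82.02, 84.50 and 79.63 in WGFT17, and 72.38, 70.77 and 75.79 in Control. WGFT17 lay above Control on this scale, and JHU083 overlapped both. The fitted log2 change of Tnfrsf1a was -0.01 (SE 0.06) in JHU083 against Control and 0.06 (SE 0.06, adjusted p = 0.443) in WGFT17 against Control. With limma on log2(FPKM + 1) the WGFT17 change was 0.17 (adjusted p = 0.0482). Tnfrsf1b, which signals through TRAFs without a death domain, had 116.49, 122.54 and 108.70 FPKM in JHU083, 116.79, 121.81 and 116.43 in WGFT17, and 106.62, 102.64 and 113.26 in Control. Its fitted log2 changes were 0.01 in JHU083 and 0.03 in WGFT17 against Control (SE 0.06 each).

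Ltbr lies 35.5 kb from Tnfrsf1a on chromosome 6 and had 35.81, 35.52 and 31.01 FPKM in JHU083, 35.24, 38.14 and 35.88 in WGFT17, and 35.53, 36.91 and 36.87 in Control. It was called lower in JHU083 with a log2 change of -0.19 (SE 0.06, adjusted p = 0.0434), although its values overlapped those of Control. That call was lost without JHU083 replicate 3 (adjusted p = 0.0548) and under every other omission of a library except that of JHU083 replicate 1, with adjusted p-values of 0.0502 to 0.129. With the term for the library split the change was -0.32 (adjusted p = 0.00501). In WGFT17 against Control its log2 change was -0.11 (SE 0.06, adjusted p = 0.143), and it was called without JHU083 replicate 3 (adjusted p = 0.0396) and with the term for the library split (-0.30, adjusted p = 0.0097).

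The 3 receptors that lie side by side on chromosome 7 differed between the compounds. Tnfrsf26 (143607659 to 143628722), Tnfrsf22 (143634806 to 143649661) and Tnfrsf23 (143665809 to 143685872) share the minus strand of GRCm38, with gaps of 6.1 and 16.1 kb. In mice, Tnfrsf22 and Tnfrsf23 are known as decoy receptors for the death ligand TRAIL. Tnfrsf26 had 5.50, 5.83 and 6.33 FPKM in JHU083, 10.49, 10.69 and 10.83 in WGFT17, and 7.44, 6.08 and 6.01 in Control. WGFT17 stood clear of both other groups, which overlapped. The log2 change of Tnfrsf26 in WGFT17 was 0.60 against Control (SE 0.09, adjusted p = 0.000231) and 0.84 against JHU083 (SE 0.09, adjusted p = 2.29e-05). Between JHU083 and Control it was -0.24 (SE 0.09, adjusted p = 0.0896), called without JHU083 replicate 3 (-0.30, adjusted p = 0.0351).

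Tnfrsf22 followed the same order at a lower level, with 1.86, 1.85 and 1.92 FPKM in JHU083, 2.94, 2.51 and 2.67 in WGFT17, and 1.92, 2.06 and 2.05 in Control. Its log2 change in WGFT17 was 0.32 against Control (SE 0.10, adjusted p = 0.0155) and 0.51 against JHU083 (SE 0.10, adjusted p = 0.00135). The call against Control was lost without WGFT17 replicate 1 (adjusted p = 0.0694) and without Control replicate 1 (adjusted p = 0.0515), and with the term for the library split (0.38, adjusted p = 0.103). Tnfrsf23 differed from its neighbours in being lower in JHU083. It had 5.74, 5.47 and 6.89 FPKM in JHU083, 7.40, 8.46 and 7.54 in WGFT17, and 8.35, 7.98 and 8.37 in Control. JHU083 was below both other groups, with a log2 change of -0.54 against Control (SE 0.10, adjusted p = 0.00342), or -0.34 (adjusted p = 0.0276) with the term for the library split, and WGFT17 exceeded JHU083 by 0.35 (SE 0.10, adjusted p = 0.0106). Against Control, WGFT17 had a log2 change of -0.19 (SE 0.09, adjusted p = 0.112), called without JHU083 replicate 3 (adjusted p = 0.031) and at 0.12 (adjusted p = 0.446) with the term. Tnfrsf22 and Tnfrsf23 are close copies of each other, so the division of reads between them is uncertain.

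**Figure D3:**
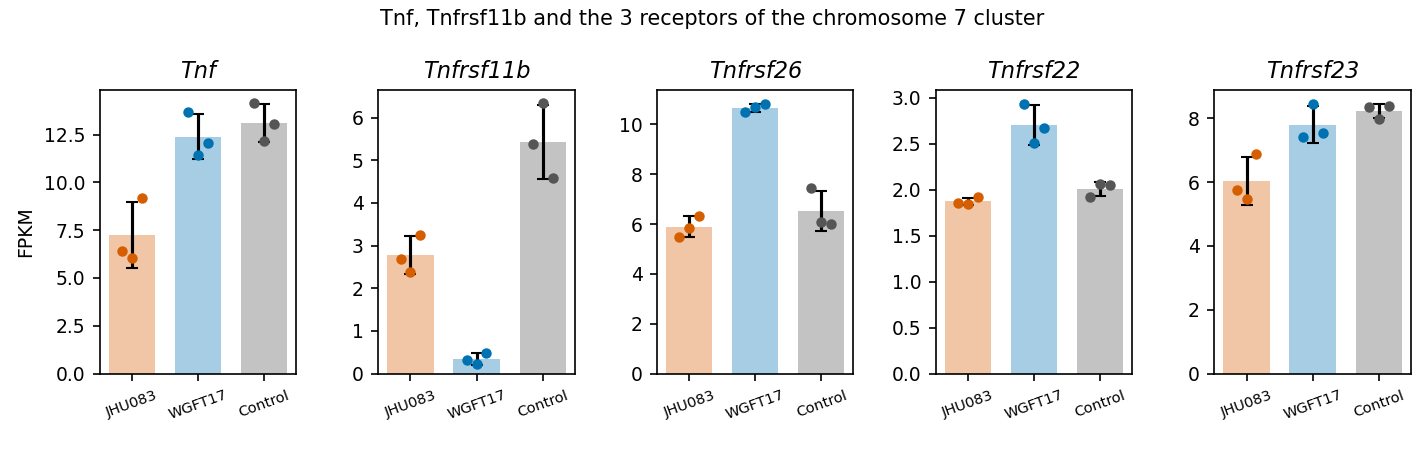
FPKM of Tnf, Tnfrsf11b, Tnfrsf26, Tnfrsf22 and Tnfrsf23 in JHU083 (orange), WGFT17 (blue) and Control (grey); bars are group means from 0, error bars the SD of 3 libraries, and points the libraries. The 3 groups of Tnfrsf11b do not overlap, Tnf is lowest in JHU083, and Tnfrsf26 is highest in WGFT17 at 10.49 to 10.83 FPKM.

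Further death domain receptors were Fas, Tnfrsf10b and Tnfrsf21. Fas had 3.34, 3.20 and 4.16 FPKM in JHU083, 2.36, 2.55 and 1.92 in WGFT17, and 3.78, 3.67 and 3.20 in Control. WGFT17 lay below both other groups, with a log2 change of -0.74 against Control (SE 0.15, adjusted p = 0.00154) and -0.66 against JHU083 (SE 0.15, adjusted p = 0.00425). Against Control the Fas change was -0.39 with an adjusted p of 0.21 under the term for the library split. Fasl, the ligand of Fas, had at most 0.10 FPKM in any library.

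Tnfrsf10b, the mouse TRAIL death receptor, was lower with both compounds. It had 3.84, 3.88 and 3.65 FPKM in JHU083, 3.58, 3.41 and 3.47 in WGFT17, and 4.35, 4.65 and 4.26 in Control. The groups did not overlap, with log2 changes against Control of -0.31 in JHU083 (SE 0.07, adjusted p = 0.00854) and -0.45 in WGFT17 (SE 0.07, adjusted p = 0.000188). Its ligand Tnfsf10 was under the FPKM limit. Tnfrsf21, another death domain receptor, averaged 12.0 ± 1.04 FPKM in JHU083, 14.9 ± 0.66 in WGFT17 and 11.8 ± 0.06 in Control. It was higher in WGFT17 than in Control (log2 change 0.22, SE 0.07, adjusted p = 0.0139) and than in JHU083 (0.30, SE 0.07, adjusted p = 0.00352). The Tnfrsf21 change against Control was 0.03 (adjusted p = 0.781) with the term for the library split, and it lost its call without WGFT17 replicate 2 (adjusted p = 0.0637).

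Receptors of costimulation and B cell survival factors moved in different directions. Cd40, which receives T cell help, had 1.03, 1.40 and 0.92 FPKM in JHU083, 1.94, 1.86 and 1.67 in WGFT17, and 0.95, 1.10 and 0.82 in Control. WGFT17 stood above both other groups, with a log2 change of 0.81 against Control (SE 0.18, adjusted p = 0.00303) and 0.69 against JHU083 (SE 0.18, adjusted p = 0.0096). With the term for the library split the Cd40 change against Control was 0.43, with an adjusted p of 0.271. Summed B cell and dendritic cell markers, cells in which Cd40 is known, were lowest in WGFT17, where Cd40 was highest; their part was not tested.

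Tnfrsf13b, the receptor TACI for APRIL and BAFF, had 10.82, 10.68 and 9.12 FPKM in JHU083, 13.34, 11.97 and 11.95 in WGFT17, and 8.48, 8.56 and 7.97 in Control. The 3 groups did not overlap. WGFT17 was higher than Control (log2 change 0.47, SE 0.08, adjusted p = 0.000501) and than JHU083 (0.27, SE 0.08, adjusted p = 0.0182), a call lost without WGFT17 replicate 1 (adjusted p = 0.0757). The change in JHU083 against Control, 0.20 (SE 0.08, adjusted p = 0.0989), was called without JHU083 replicate 3 (0.27, adjusted p = 0.0159). With the term for the library split the WGFT17 change against Control was 0.24 (adjusted p = 0.112). Tnfrsf14, known as HVEM, had 5.53, 5.62 and 4.63 FPKM in JHU083, 3.34, 3.83 and 3.38 in WGFT17, and 4.91, 3.63 and 3.69 in Control. WGFT17 lay below JHU083, and Control overlapped both. It was called lower in WGFT17 than in JHU083 (log2 change -0.60, SE 0.15, adjusted p = 0.00764) and was not called against Control.

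Of the 6 TRAFs tested, 1 was called in JHU083 against Control, 5 in WGFT17 against Control and 4 between the drug groups, where 24%, 58% and 44.7% of all tested genes were called. Traf4, an adaptor known in epithelial cells and development, was the one called in all 3 comparisons. It had 3.93, 4.05 and 3.61 FPKM in JHU083, 2.76, 2.56 and 3.17 in WGFT17, and 5.99, 6.36 and 6.21 in Control. The groups did not overlap, with WGFT17 lowest and Control highest. Traf4 was 1.71-fold lower in JHU083 than in Control (log2 change -0.77, SE 0.10, adjusted p = 0.000785), 2.36-fold lower in WGFT17 than in Control (log2 change -1.24, SE 0.10, adjusted p = 9.66e-07) and 1.38-fold lower in WGFT17 than in JHU083 (log2 change -0.46, SE 0.10, adjusted p = 0.00227).

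Traf5 was lower in WGFT17 than in both other groups. Its values were 1.94, 2.31 and 1.95 FPKM in JHU083, 1.44, 1.22 and 1.22 in WGFT17, and 1.80, 1.99 and 2.17 in Control. The log2 change of Traf5 in WGFT17 was -0.73 against Control (SE 0.13, adjusted p = 0.000518) and -0.69 against JHU083 (SE 0.13, adjusted p = 0.000955). Traf3 and Traf6 were instead higher in WGFT17. Traf3, which restrains the alternative NF-kB route, had 6.30, 6.56 and 6.03 FPKM in JHU083, 7.46, 7.33 and 6.85 in WGFT17, and 5.80, 5.34 and 5.39 in Control. Its log2 change was 0.28 against Control (SE 0.06, adjusted p = 0.00247), or 0.20 (adjusted p = 0.127) with the term for the library split. Against JHU083 it was 0.18 (SE 0.06, adjusted p = 0.033), a call lost without JHU083 replicate 3, JHU083 replicate 1, WGFT17 replicate 1 or WGFT17 replicate 2, with adjusted p-values of 0.0541 to 0.108, and with the term for the library split (0.15, adjusted p = 0.0587). Between JHU083 and Control the Traf3 change was 0.10 (SE 0.06, adjusted p = 0.267), and with limma on log2(FPKM + 1) it was 0.16 (adjusted p = 0.0479).

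Traf6, which also serves Toll-like and interleukin-1 receptors, had 4.16, 4.06 and 4.57 FPKM in JHU083, 5.25, 5.15 and 4.82 in WGFT17, and 4.20, 3.64 and 3.44 in Control. WGFT17 lay above both other groups, which overlapped. The log2 change was 0.32 against Control (SE 0.08, adjusted p = 0.00688), or 0.49 (adjusted p = 0.0125) with the term for the library split, and 0.24 against JHU083 (SE 0.08, adjusted p = 0.0412). The Traf6 call against JHU083 was lost without JHU083 replicate 1, JHU083 replicate 2, WGFT17 replicate 1, WGFT17 replicate 2 or Control replicate 2, with adjusted p-values of 0.0541 to 0.115. Traf7, which lacks the TRAF domain of the others, averaged 13.1 ± 0.85 FPKM in JHU083, 13.0 ± 0.98 in WGFT17 and 13.6 ± 0.71 in Control. It was called in WGFT17 against Control at the edge of the threshold (log2 change -0.17, SE 0.07, adjusted p = 0.0484), with groups that overlapped. That call was lost without JHU083 replicate 1, WGFT17 replicate 1, WGFT17 replicate 2, Control replicate 2 or Control replicate 3, with adjusted p-values of 0.057 to 0.188, and the change was -0.32 (adjusted p = 0.026) with the term for the library split. In JHU083 against Control, Traf7 was called with the term for the library split (log2 change -0.25, adjusted p = 0.0409), against -0.15 (adjusted p = 0.124) without it. Traf2, the main adaptor of the TNF receptors, averaged 3.82 ± 0.20, 3.36 ± 0.24 and 3.42 ± 0.24 FPKM in JHU083, WGFT17 and Control and was not called.

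Across comparisons, 2 members, Traf4 and Tnfrsf11b, were lower in JHU083 than in Control, lower in WGFT17 than in Control and lower in WGFT17 than in JHU083. With the term for the library split, Tnfrsf11b was not called in JHU083 against Control. Another 3, Tnfsf12, Tnfrsf12a and Tnfrsf10b, were called lower with both compounds and not called between them, and 1, Tnfrsf11a, was called higher with both and not between them. In 7 members WGFT17 was called above both JHU083 and Control with no call between JHU083 and Control, namely Cd40, Tnfrsf13b, Tnfrsf21, Tnfrsf22, Tnfrsf26, Traf3 and Traf6. With the term for the library split, Cd40, Tnfrsf13b, Tnfrsf21, Tnfrsf22 and Traf3 lost their call against Control. Without JHU083 replicate 3, Tnfrsf13b was called higher and Tnfrsf26 lower in JHU083 than in Control. In 3 members, Fas, Tnfsf13 and Traf5, WGFT17 was called below both in the same manner. Of these, Fas and Tnfsf13 lost their call against Control with the term for the library split. Tnf and Tnfrsf23 were called lower in JHU083 than in both Control and WGFT17. The other members with a call, Tnfsf9, Tnfrsf14, Traf7 and Ltbr, had it in 1 comparison each. The share of all tested genes with each of these patterns was not counted. The groupings therefore only describe the members and are not a result about the family.

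A list of 68 genes that act around these receptors was described beside the members, of which 66 were tested. In JHU083 against Control, 17 of the 66 were called, 12 higher and 5 lower, with a median log2 change of 0.10. In WGFT17 against Control, 36 were called, 23 higher and 13 lower, with a median of 0.07, and between WGFT17 and JHU083 28 were called, 15 higher and 13 lower, with a median of -0.04. As shares of the 66 these are 25.8%, 54.5% and 42.4%, close to the 24%, 58% and 44.7% over all tested genes. The split of these calls into higher and lower moved with the method. In JHU083 against Control, 25 were higher and 2 lower with limma on log2(FPKM + 1), and 17 were higher and 10 lower with the term for the library split. In WGFT17 against Control, 30 were higher and 8 lower with limma, and 19 were higher and 18 lower with that term.

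Fos, a subunit of the AP-1 factor and an early target of many receptors, moved in opposite directions with the 2 compounds. It had 23.86, 25.80 and 19.85 FPKM in JHU083, 69.82, 58.11 and 63.78 in WGFT17, and 36.95, 31.79 and 34.29 in Control. No 2 groups overlapped. The log2 change of Fos was -0.66 in JHU083 against Control (SE 0.10, adjusted p = 0.00164), 0.79 in WGFT17 against Control (SE 0.10, adjusted p = 4.02e-05) and 1.45 in WGFT17 against JHU083 (SE 0.10, adjusted p = 3.72e-07). With the term for the library split, Fos in WGFT17 against Control was at 0.48 (adjusted p = 0.014). Junb, another AP-1 subunit, was lower in JHU083 than in Control (log2 change -0.43, SE 0.13, adjusted p = 0.0311). The Junb change was -0.26 (adjusted p = 0.00542) without JHU083 replicate 3 and -0.84 (adjusted p = 0.000185) with the term for the library split, and the call was lost without Control replicate 1, 2 or 3 (adjusted p-values of 0.0584 to 0.102). Map2k6, which activates p38 kinases, was lower in WGFT17 than in JHU083 by a log2 change of -1.23 (SE 0.16, adjusted p = 9.04e-05). Map2k6 averaged 1.53 FPKM in JHU083, 0.65 in WGFT17 and 1.09 in Control. Its WGFT17 mean is under the limit of 1 FPKM, so its place in the test rests on the other groups.

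Of 8 adaptors and kinases of the death domain receptors, 3 were higher and 1 lower in JHU083 against Control, and 4 were higher and 1 lower in WGFT17 against Control, where 24% and 58% of all tested genes were called. Ripk3, the kinase of necroptosis, had 10.08, 11.64 and 9.47 FPKM in JHU083, 5.04, 6.38 and 5.66 in WGFT17, and 11.81, 12.32 and 12.81 in Control. The groups did not overlap. Its log2 change was -0.34 in JHU083 (SE 0.10, adjusted p = 0.0361) and -1.22 in WGFT17 (SE 0.11, adjusted p = 2.1e-06), both against Control, and -0.88 in WGFT17 against JHU083 (SE 0.10, adjusted p = 3.65e-05). The Ripk3 call in JHU083 was lost without JHU083 replicate 3 (-0.28, adjusted p = 0.0665), and also without JHU083 replicate 1 or Control replicate 1, 2 or 3 (adjusted p-values of 0.0592 to 0.121). Ripk1, the kinase shared by survival and death signals, was higher with JHU083 (log2 change 0.28, SE 0.05, adjusted p = 0.00367), or 0.18 (adjusted p = 0.0202) with the term for the library split. In WGFT17 against Control, Ripk1 was at 0.30 (SE 0.05, adjusted p = 0.00037), or 0.16 (adjusted p = 0.0621) with that term. The death domain adaptor Madd was higher in JHU083 than in Control (0.27, SE 0.05, adjusted p = 0.00357). Madd averaged 7.59 FPKM in JHU083, 7.98 in WGFT17 and 5.87 in Control.

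Of 13 TAK1 and IKK kinases and partners, which lead to NF-kB, 4 were called in JHU083 against Control, each higher, and 5 in WGFT17 against Control, 4 higher and 1 lower, against 24% and 58% of all tested genes. Ikbkg, the regulatory subunit NEMO of the IKK complex, had 8.97, 8.86 and 8.09 FPKM in JHU083, 12.29, 12.58 and 13.00 in WGFT17, and 6.44, 6.72 and 6.95 in Control. Its groups did not overlap, and its log2 change was 0.27 in JHU083 (SE 0.05, adjusted p = 0.00649), 0.80 in WGFT17 (SE 0.05, adjusted p = 3.07e-07) against Control and 0.53 between them (SE 0.05, adjusted p = 1.11e-05). Map3k5, the stress kinase ASK1, had 3.94, 4.02 and 3.67 FPKM in JHU083, 5.90, 5.80 and 6.08 in WGFT17, and 3.03, 2.96 and 2.59 in Control. The Map3k5 change in JHU083 against Control was 0.35 (SE 0.07, adjusted p = 0.00854). With the term for the library split it was 0.28 and not called (adjusted p = 0.0573). Among the feedback genes, Tnfaip3, the ubiquitin editor A20 that restrains NF-kB, was lower in WGFT17 than in Control (log2 change -0.61, SE 0.08, adjusted p = 5.12e-05) and than in JHU083 (-0.59, SE 0.08, adjusted p = 8.74e-05). The 10 NF-kB factors and inhibitors had log2 changes of -0.24 to 0.16 in JHU083 against Control. In WGFT17 against JHU083, Nfkbib, an inhibitor of NF-kB, was higher by a log2 change of 0.59 (SE 0.08, adjusted p = 0.000114). Against Control the Nfkbib change in WGFT17 was 0.35 (SE 0.08, adjusted p = 0.00313), or 0.24 (adjusted p = 0.183) with the term for the library split.

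Of 7 genes that act in cutting ligands and receptors from the cell surface, 3 were called in JHU083 against Control, 2 higher and 1 lower, and 6 in WGFT17 against Control, 4 higher and 2 lower, against the same 24% and 58%. Adam10, a sheddase, had 35.74, 37.67 and 40.95 FPKM in JHU083, 47.76, 47.70 and 47.54 in WGFT17, and 30.85, 29.44 and 27.14 in Control. Its groups did not overlap, and it was higher in WGFT17 than in Control by a log2 change of 0.60 (SE 0.06, adjusted p = 9.61e-06). Adam17, the enzyme that releases TNF, was higher in JHU083 than in Control (log2 change 0.28, SE 0.06, adjusted p = 0.00672), and its inhibitor Timp3 was lower (-0.35, SE 0.07, adjusted p = 0.00537). Timp3 was also lower in WGFT17 than in Control (-0.32, SE 0.07, adjusted p = 0.00166). Adam17 averaged 21.7 FPKM in JHU083, 21.4 in WGFT17 and 16.7 in Control. Rhbdf1, a rhomboid-like partner in Adam17 maturation, was lower in WGFT17 than in Control (-0.83, SE 0.10, adjusted p = 3.34e-05). The related Rhbdf2 was instead higher in WGFT17 than in Control (0.42, SE 0.07, adjusted p = 0.00037), or 0.17 (adjusted p = 0.0999) with the term for the library split. In JHU083 against Control, that term gave calls for Rhbdf1 (-0.42, adjusted p = 0.00982) and Rhbdf2 (-0.21, adjusted p = 0.0279). Without the term their changes were -0.16 (adjusted p = 0.248) and -0.04 (adjusted p = 0.672). Of the TRAF interactors, Tifab was lower in WGFT17 than in Control (-0.62, SE 0.09, adjusted p = 0.000195), and Traf3ip3 was lower in WGFT17 than in JHU083 (-1.22, SE 0.17, adjusted p = 0.000117). Traf3ip3 averaged 2.03 FPKM in JHU083, 0.87 in WGFT17 and 1.55 in Control. Its WGFT17 mean is under the limit of 1 FPKM, so its place in the test rests on the other groups.

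**Figure D4:**
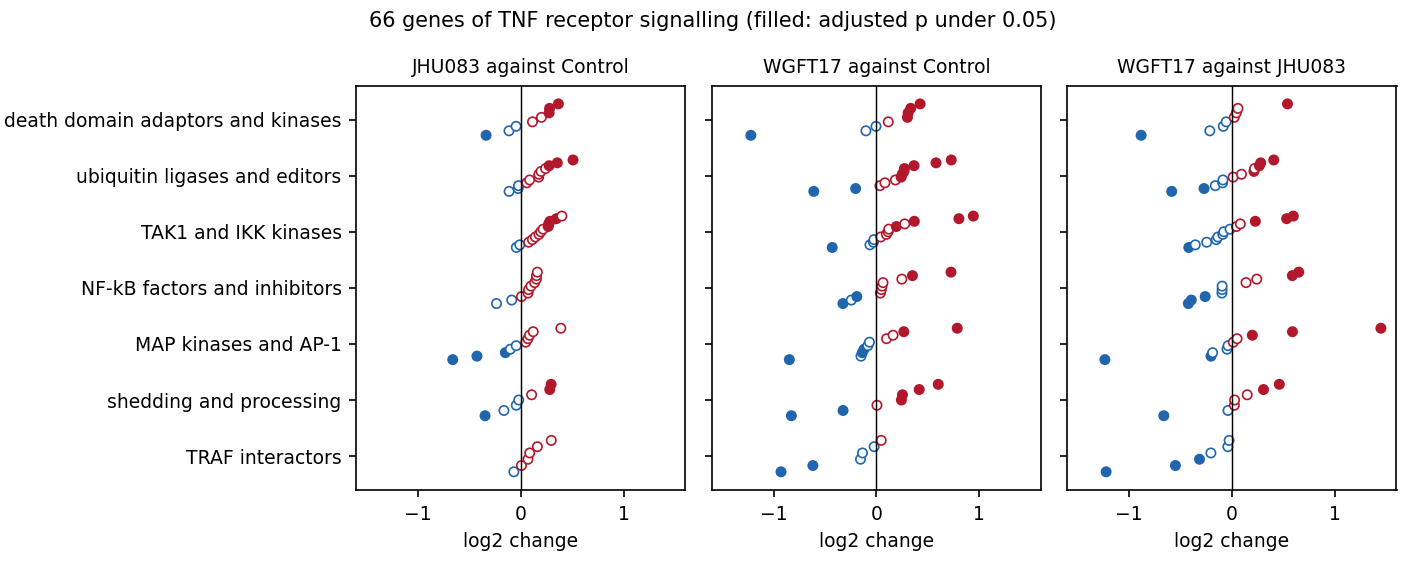
Fitted log2 change of the 66 tested genes around the TNF receptors in JHU083 against Control, WGFT17 against Control and WGFT17 against JHU083 (panels), in rows by role; red is higher and blue lower in the group named first, and filled circles have an adjusted p under 0.05. In the row of MAP kinases and AP-1, Fos is the leftmost point at -0.66 in the JHU083 panel and the rightmost at 0.79 in the WGFT17 panel.

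The other 18 members had a mean under 1 FPKM and were left out of the counts above. They are the ligands Fasl, Ltb, Tnfsf4, Tnfsf8, Tnfsf10, Tnfsf11, Tnfsf13b, Tnfsf14, Tnfsf15 and Tnfsf18, the receptors Cd27, Tnfrsf4, Tnfrsf8, Tnfrsf17, Tnfrsf18, Tnfrsf19 and Tnfrsf25, and Traf1. Their means over the libraries ran from 0.02 FPKM for Tnfrsf17 to 0.67 for Tnfsf14, and the highest value in any library was 1.42 FPKM, for Tnfrsf18 in JHU083 replicate 1. Thus 10 of the 14 ligands found by symbol were at this low level, against 7 of the 23 receptors and 1 of the 7 TRAFs. Of all 28998 genes, only 11798 had a mean of at least 1 FPKM, so a low level is common in the table.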

How the data were processed

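RNA was measured in 9 libraries of poly(A) RNA, read as stranded pairs of 150 bases per the labels' protocols. The authors deposited 1 table, in which every gene has an FPKM value and an expected count (estimated count in the text) per library. StringTie 2.1.6, HISAT2 2.2.1 and cutadapt 1.9 are in the submitters' processing notes with no role stated, beside edgeR, DESeq2 and the build mm9. As deposited, expected counts were whole and not scaled to library depth, with about 4 counts for 1 read pair. FPKM values had been scaled by the authors to transcript length and depth. Start and end in the table were those of GENCODE M21 (GRCm38) for 90.2% of gene identifiers (26088 of 28926 found there) and for 38 of the 44 members, so positions are given in GRCm38.

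Genes with a mean of at least 1 FPKM over the 9 libraries were tested with edgeR 4.0.16 (quasi-likelihood, TMM, all 9 libraries in 1 fit) under R 4.3.3. In each comparison the Benjamini-Hochberg adjustment ran over 11798 genes. A gene was called at an adjusted p under 0.05. On simulated data with 200 changed genes among the 11798, 73.1% of those changed 1.5-fold and 100% of those changed 2-fold were found in JHU083 against Control. In WGFT17 against Control these were 58.2% and 100%. The simulation gave all genes the same dispersion (spread between libraries) and changed far fewer genes than were called here. Its shares therefore do not give the sensitivity in these data. Means and SDs are those of deposited FPKM. SEs belong to the fitted log2 changes.

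The members, the gene lists and the term for the library split were chosen with earlier results of these data known. All tested members are described. Values per library are given for Tnf and its receptors and for the up to 10 members with the largest called changes of each comparison, and further members are given in the same way or as mean ± SD. Up to 4 listed genes per direction and comparison, those with the smallest adjusted p, are named. Rhbdf2 is given in addition, beside Rhbdf1. Alternatives numbered 21, of which 9 left out 1 library each, and included limma 3.58.1 on log2(FPKM + 1) and log2(FPKM + 0.1) and DESeq2 1.42.0. Summed CPM of the marker lists not quoted elsewhere were 204 to 237 in JHU083, 112 to 118 in WGFT17 and 247 to 284 in Control for 12 neutrophil genes. For 5 endothelial genes they were 42.2 to 49.8, 15.0 to 20.3 and 36.7 to 43.7 in the same order of groups. For 6 T and NK cell genes they were 1.55 to 4.12, 3.70 to 9.42 and 1.06 to 1.79. For 15 liver genes they were 221 to 758, 304 to 670 and 1327 to 1491.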

Additional observations from a re-analysis of the deposited data

How the results depend on the processing

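No called change of a member reversed under the 21 alternatives. Of 533 values of members under alternatives in each comparison, 510 in JHU083 against Control, 505 in WGFT17 against Control and 517 in WGFT17 against JHU083 kept their side of the threshold. Among these, 24, 11 and 14 values differed in sign from the reported one without being called in either case. Of the genes named from the pathway list, Junb in WGFT17 against Control was at 0.16 without a call. It was called lower, at -0.42 (adjusted p = 0.0034), with the term for the library split. Without JHU083 replicate 3 it was instead called higher (0.16, adjusted p = 0.0132), as with only the 2 groups compared in the fit (0.16, adjusted p = 0.0193). The direction of a Junb call thus depended on the setting. Leaving out 1 library gave 8 to 10, 15 to 19 and 12 to 16 members called in these comparisons, 12 to 22, 29 to 41 and 23 to 31 genes of the pathway list, and 1534 to 3731, 6007 to 7598 and 4471 to 5713 of all genes. In JHU083 against Control the lowest counts over all genes were 1534 without Control replicate 2 and 1568 without Control replicate 3, and the highest was 3731 without JHU083 replicate 3. With a minimum of 5 FPKM, which leaves 6807 genes and 13 members, the counts were 8 members and 4151 genes in WGFT17 against Control, and 5 members, 17 listed genes and 3305 genes in WGFT17 against JHU083; fewer genes are tested there. In WGFT17 against Control, 11 members were called with the term for the library split. The pathway list had 27 called genes in JHU083 against Control with that term, and also 27 with limma at either pseudocount; the cause was not tested. With the replicate block, 8, 16 and 15 members were called, all of them among those called without it, with Ltbr, Traf7 and Traf6 lost. Libraries with the same replicate number showed little shared deviation (correlations from -0.03 to 0.16). With 3 libraries per group this cannot exclude a pairing. In WGFT17, Tnfrsf11b rests on 47 to 97 estimated counts per library, at about 4 counts per read pair. This limits the precision of its fold change.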

Other observations

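Members under 1 FPKM were also fitted with no minimum level, and those named here were chosen after their values were seen. In this fit, edgeR's quasi-likelihood test called 5 of the 18 lower in WGFT17 than in both Control and JHU083, namely Tnfsf11, Tnfsf14, Tnfsf15, Tnfrsf19 and Traf1. Of all genes in that fit, 14.9% were called lower in WGFT17 than in Control and 11.7% lower in WGFT17 than in JHU083. Tnfsf11, which encodes RANKL, had 1.07, 0.48 and 0.66 FPKM in JHU083, 0.20, 0.04 and 0.07 in WGFT17, and 1.08, 0.72 and 1.02 in Control. Its log2 change in WGFT17 was -3.18 against Control (SE 0.51, adjusted p = 0.000936) and -2.73 against JHU083 (SE 0.51, adjusted p = 0.00302). RANKL is known from stromal and T cells. The summed stromal markers were lowest in WGFT17. The T and NK cell markers went the other way, at 3.70 to 9.42 CPM in WGFT17, 1.55 to 4.12 in JHU083 and 1.06 to 1.79 in Control. The part of either cell type was not tested. Traf1, an adaptor that NF-kB is known to induce, had 0.84, 0.58 and 0.77 FPKM in JHU083, 0.29, 0.36 and 0.33 in WGFT17, and 0.79, 0.57 and 0.77 in Control. Its log2 change in WGFT17 was -1.19 against Control (SE 0.19, adjusted p = 0.000854) and -1.12 against JHU083 (SE 0.19, adjusted p = 0.00159).

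Cd27 was the only low member called higher, in WGFT17 against Control (log2 change 1.98, SE 0.55, adjusted p = 0.0228), at 0.16, 0.13 and 0.41 FPKM in WGFT17 and 0.04, 0.05 and 0.06 in Control. There, 12.4% of all genes were called higher. Cd27 is known from lymphocytes, and the 6 T and NK cell markers summed to 3.70 to 9.42 CPM in WGFT17 and 1.06 to 1.79 in Control. The B cell markers went the other way, at 8.64 to 10.2 CPM in WGFT17 and 51.2 to 52.9 in Control. The part of these cells was not tested.

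The superfamily also has receptors that the symbol rule does not take. Relt averaged 2.88 ± 0.70 FPKM in JHU083, 1.63 ± 0.11 in WGFT17 and 3.00 ± 0.24 in Control, and was lower in WGFT17 than in Control (log2 change -0.99, SE 0.16, adjusted p = 0.000353). Eda2r averaged 2.41 ± 0.13, 1.79 ± 0.27 and 2.79 ± 0.02 FPKM in JHU083, WGFT17 and Control, and was likewise lower in WGFT17 than in Control (log2 change -0.75, SE 0.11, adjusted p = 0.000145). Lta, which lies next to Tnf, had at most 0.67 FPKM in any library.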
